A study of Mus musculus with 12 samples.

Results

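The comparison described here was the effect of SB204990, an inhibitor of ATP citrate lyase, on H3K27 acetylation in 4T1 cells that also received etomoxir and no added acetate. It was taken from a table of spike-in scaled H3K27ac ChIP-seq signal, and its members were the 2 etomoxir + SB204990 libraries and the 2 etomoxir libraries, 4 of the 12 libraries in the table. 4T1 is an established mouse mammary carcinoma line that spreads to distant organs when grown in BALB/c mice. All cells were treated for 48 h. The etomoxir group received etomoxir at 50 µM, and the etomoxir + SB204990 group received SB204990 at 50 µM on top of it. Neither group received the 5 mM acetate that defines the matching pair of groups, etomoxir + acetate and etomoxir + SB204990 + acetate, used below for reference. The remaining libraries were vehicle and acetate alone.

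Each group had 1 library in each of 2 sets, told apart by a suffix in the library name. The meaning of that suffix is not given, and neither the labels nor the methods say that the libraries of a group came from separate cultures. The p-values therefore measure the spread between libraries, which may be technical. One cell line was used, and each library is a population of cells, so an average over cells is all that was measured.

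ATP citrate lyase, encoded by *Acly*, cleaves citrate exported from mitochondria and so supplies the cytosol and nucleus with acetyl-CoA, the donor for histone acetylation and for fatty acid and cholesterol synthesis. Etomoxir blocks carnitine palmitoyltransferase 1, encoded in most tissues by *Cpt1a*, which admits long-chain fatty acids to mitochondrial oxidation, another source of acetyl-CoA. Acetate can be made into acetyl-CoA by the acetyl-CoA synthetase *Acss2* without ATP citrate lyase. H3K27ac is a mark of active promoters and enhancers.

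The table held 126464 intervals, the authors' peak regions, with a median length of 715 bp and a range of 165 to 185673 bp. Every scaled value was a whole number of reads times a factor set for its library from the human spike-in chromatin. In set 1 the etomoxir library had 14024593 reads in intervals and a factor of 0.571, and the etomoxir + SB204990 library had 13441958 reads and a factor of 0.398. In set 2 the etomoxir library had 13712757 reads and a factor of 0.573. The set 2 etomoxir + SB204990 library had 7179165 reads, the fewest of the 12, and a factor of 1. In set 1 the library with a factor of 1 was etomoxir + acetate, so each set had its own highest factor and the scaled values of the sets need not be on 1 scale. The set 2 etomoxir + SB204990 library stood apart in other ways too. Its correlation with the other 11 libraries averaged 0.965, where each of those averaged 0.976 to 0.978, and the weakest quartile of intervals held 3.003% of its signal against 0.947 to 1.57% in the other 11. The results below are therefore set beside values for each set, and set 1 alone is the comparison without it. Of the epithelial carcinoma markers, 8 of 10 had an interval, with a summed share of 1308 to 1504 ppm (parts per 1000000) of all signal in the 4 libraries. The hepatocyte markers *Alb*, *Ttr* and *Cyp2e1* had none, and the summed shares of the hepatocyte, immune, endothelial, fibroblast, adipocyte and neuron lists were each at most 106 ppm.

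Sequences from the mouse genome are shown here for intervals that the results turn on. They are from the RefSeq GRCm38.p6 assembly, forward strand. The first 3, from intervals higher in the etomoxir + SB204990 group, are sequences present in several copies, as most of those intervals were. Near *Gm10722*, at chr9:3000175-3000408, a unit of 234 bases is repeated in tandem, and the capitals mark the 227 bases (97.0%) identical to the next unit. The interval of 330 bp in *Zc3h7a* and that of 325 bp in *Filip1l* are short intronic stretches, of which the first 300 bases are shown (chr16:11143982-11144281 and chr16:57391335-57391634). The capitals mark the longest alignment elsewhere at 95% identity or more, which is at 97.7% identity to chr1:167340241-167340543 and at 96.6% identity to chr12:99645080-99645401. All bases of both intervals had copies elsewhere at 90% identity or more.
Gm10722 repeat unit: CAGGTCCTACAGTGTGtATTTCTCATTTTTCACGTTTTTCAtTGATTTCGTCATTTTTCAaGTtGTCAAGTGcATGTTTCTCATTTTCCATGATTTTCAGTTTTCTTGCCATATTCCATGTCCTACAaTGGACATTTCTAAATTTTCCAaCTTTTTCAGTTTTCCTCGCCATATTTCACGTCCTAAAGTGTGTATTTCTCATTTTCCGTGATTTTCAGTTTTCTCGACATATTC
Zc3h7a: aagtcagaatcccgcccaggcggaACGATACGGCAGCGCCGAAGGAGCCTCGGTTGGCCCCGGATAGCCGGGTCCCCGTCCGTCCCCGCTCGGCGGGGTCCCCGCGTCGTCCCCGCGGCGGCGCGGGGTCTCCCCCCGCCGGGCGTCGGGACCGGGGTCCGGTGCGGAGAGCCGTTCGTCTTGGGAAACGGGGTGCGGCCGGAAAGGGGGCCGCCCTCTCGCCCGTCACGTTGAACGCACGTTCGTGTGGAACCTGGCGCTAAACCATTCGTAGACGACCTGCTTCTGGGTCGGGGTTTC
Filip1l: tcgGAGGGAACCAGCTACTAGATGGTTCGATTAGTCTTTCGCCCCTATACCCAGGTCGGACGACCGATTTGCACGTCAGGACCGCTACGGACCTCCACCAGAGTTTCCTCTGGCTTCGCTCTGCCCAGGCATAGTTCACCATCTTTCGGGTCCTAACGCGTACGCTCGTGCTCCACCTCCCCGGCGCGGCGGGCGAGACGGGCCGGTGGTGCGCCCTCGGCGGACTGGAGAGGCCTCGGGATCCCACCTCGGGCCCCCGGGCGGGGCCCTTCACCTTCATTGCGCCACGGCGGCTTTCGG

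Little of the sequence of the intervals lower in the etomoxir + SB204990 group had copies elsewhere. The windows of 100 bases below lie inside the intervals near *Irx4* (chr13:73075307-73075406), near *Ctsc* (chr7:88200287-88200386) and over *Mmp9* (chr2:164942807-164942906), and the capitals mark TGANTCA, the letters bound by AP-1 factors, searched on both strands (the motif reads the same on each). The *Mmp13* promoter (chr9:7272264-7272563) is shown as a known collagenase promoter with the same letters, 35 bases before the gene start, a match that 7.81% of 32851 RefSeq promoters of this length hold. Of the 63848 tested intervals with sequence, 55.2% held at least 1 match. The *Mmp9* interval held 16 matches or 0.399 per kb, the *Irx4* interval 3 or 0.260 per kb and the *Ctsc* interval 1 or 0.218 per kb. The median density was 0.225 per kb over all tested intervals and 0.350 per kb over those longer than 5000 bp, which include the *Mmp9* and *Irx4* intervals. The letters do not set these intervals apart.
Irx4 interval: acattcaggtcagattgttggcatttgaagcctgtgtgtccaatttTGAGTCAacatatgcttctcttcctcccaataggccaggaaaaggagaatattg
Ctsc interval: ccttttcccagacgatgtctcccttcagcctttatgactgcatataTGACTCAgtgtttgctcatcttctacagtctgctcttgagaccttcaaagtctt
Mmp9 interval: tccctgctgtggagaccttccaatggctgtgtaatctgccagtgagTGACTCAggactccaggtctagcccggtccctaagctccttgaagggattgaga
Mmp13 promoter: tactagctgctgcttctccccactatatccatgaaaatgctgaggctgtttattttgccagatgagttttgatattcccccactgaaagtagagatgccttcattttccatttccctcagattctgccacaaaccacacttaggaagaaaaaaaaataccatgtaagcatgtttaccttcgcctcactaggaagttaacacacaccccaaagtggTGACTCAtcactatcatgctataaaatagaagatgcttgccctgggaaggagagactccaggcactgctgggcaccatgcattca

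The first question was whether the overall level of H3K27ac differed when SB204990 was added. In set 1 the summed scaled signal was 8014784 with etomoxir and 5353659 with etomoxir + SB204990, a ratio of 0.668. In set 2 the sums were 7852445 and 7179165, a ratio of 0.914. Both sets were lower with SB204990, by different amounts. The group means were 7933614 ± 114791 and 6266412 ± 1290828 (SD, n = 2 each). The mean log2 ratio was -0.36 ± 0.32 (SD over the 2 sets), which is 0.781-fold, with an exact two-sided permutation p of 0.333, the smallest that 6 arrangements of 4 libraries allow. This permutation test of a single value cannot reach a p under 0.05 with 4 libraries.

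The per-interval ratios did not share the direction of the sums. The median log2 ratio over intervals with signal in both libraries was -0.75 in set 1 (124281 intervals) and 0.34 in set 2 (124696 intervals). The typical interval was thus lower with SB204990 in set 1 and higher in set 2, while the sum, which strong intervals dominate, was lower in both. The parts of the scaled value also moved unlike each other. The reads in intervals had a ratio of 0.958 in set 1 and 0.524 in set 2, and the factors had a ratio of 0.697 and 1.75. The methods base the factor on the percentage of human reads and the table multiplies it with reads not divided by depth. Multiplying each library's share of reads by the factor instead turned the mean log2 ratio of the totals to 0.14 (exact permutation p of 1) and the median interval's log2 ratio of group means from -0.17 to 0.53. Since the share sums to the same total in each library, the total then follows the factor, lower in set 1 (0.697) and higher in set 2 (1.75). The direction in the set 2 pair thus rests on how depth enters, and that in set 1 does not.

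**Figure D1:**
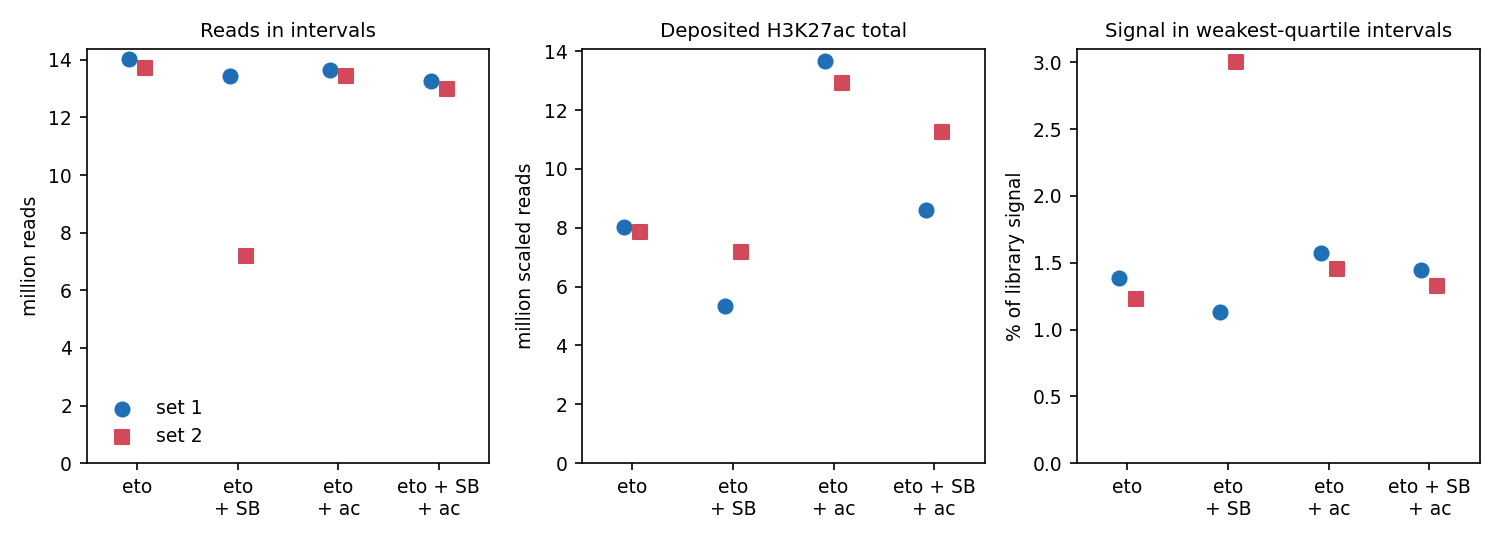
Reads in intervals, summed scaled signal (both axes in units of 1000000 reads) and percent of signal in the weakest quartile of intervals for the libraries with etomoxir (eto), SB204990 (SB) and acetate (ac), set 1 as circles and set 2 as squares. The set 2 etomoxir + SB204990 library has the fewest reads (7179165) and the largest weakest-quartile share (3.003%), and both etomoxir + SB204990 sums lie below both etomoxir sums.

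Dividing each column by its sum removes the level and leaves how the signal was distributed. The intervals were sorted into quartiles by their mean share in vehicle, which is outside the comparison. In set 1 the summed share of the weakest quartile had a log2 ratio of -0.29 and that of the strongest 1% (1265 intervals) a ratio of 0.08. In set 2 the weakest quartile had a ratio of 1.29 and the strongest 1% a ratio of -0.22. The 2 sets differed in direction, with signal slightly more concentrated in strong intervals in set 1 and far less so in set 2. With acetate present, the weakest quartile had ratios of -0.12 and -0.13 and the strongest 1% 0.06 and 0.08, both in the direction of set 1.

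The same split appeared by sequence class. Promoter-TSS intervals had log2 share ratios of 0.07 in set 1 and -0.16 in set 2. Intervals rich in CpG, over 40 per kb, had ratios of 0.15 and -0.16. Promoters and CpG-rich intervals thus held slightly more of the signal in set 1 and less in set 2. Intervals over 95% repeat-masked had a ratio of -0.03 in set 1 and 1.77 in set 2, their share being 0.120% in the set 1 library and 0.407% in the set 2 library. The pairs with acetate had 0.02 and 0.03, so the repeat-masked gain was seen in 1 of 4 pairs.

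Weak regions of the genome gave the widest gap. In 470 bins of 500 kb whose vehicle share was at most 5 ppm, with at least 5 intervals in each, the median bin share was 1.57 and 1.60 ppm in the etomoxir libraries, 1.86 ppm in the set 1 etomoxir + SB204990 library and 11.8 ppm in the set 2 library. The median log2 ratio was 0.19 in set 1 and 2.68 in set 2, and 0.25 and 0.31 in the pairs with acetate. All 4 pairs had a median above 0 in these bins, while in bins over 50 ppm the medians ran from -0.03 to 0.00. *Slc16a7*, which encodes the monocarboxylate transporter MCT2, was picked by hand, outside the rule for naming genes, as an example of this gap. Its 26 intervals at chr10:125345716-125645083 summed to 64.9 ppm in the set 2 etomoxir + SB204990 library and to 7.53 to 15.6 ppm in the other 11. All 26 had a higher share with SB204990 in set 2, and 14 of 26 in set 1. Whole chromosomes differed little, their log2 share ratios running from -0.02 to 0.04 in set 1 and from -0.15 to 0.05 in set 2 over 20 chromosomes. The 24 intervals of chromosome Y had ratios of 0.05 and 1.36, and the 105 on unplaced scaffolds 0.01 and 1.149, so both stood far higher in set 2.

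**Figure D2:**
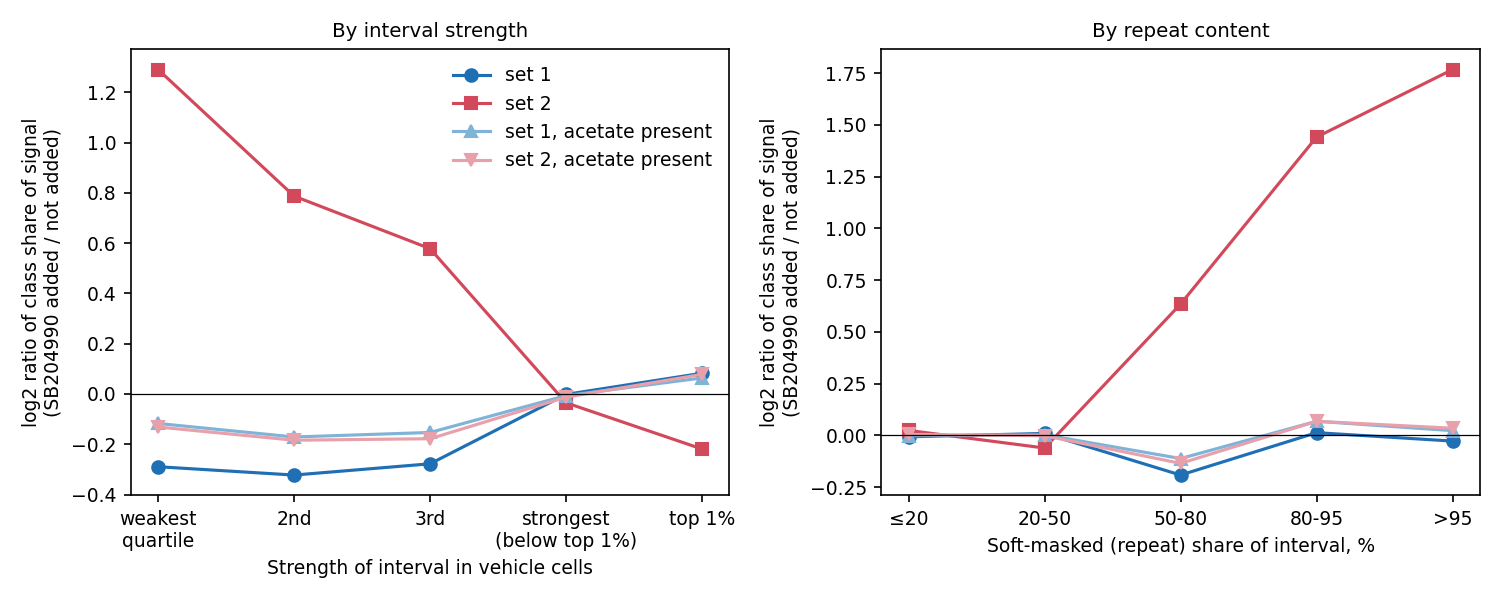
Log2 ratio of summed share, etomoxir + SB204990 over etomoxir, for interval classes by strength in vehicle (left) and by repeat-masked percent (right), set 1 as circles, set 2 as squares and the pairs with acetate as triangles. Set 2 lies apart from the other 3 pairs, with the weakest quartile at 1.29 against -0.29 to -0.12.

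Among 24109 intervals with a mean scaled value of at least 50, the value as deposited was lower with SB204990 in both sets in 65.1%, higher in both in 0.0995% and opposite in 34.8%. After division by the column sum, the share differed in opposite directions in the 2 sets in 65.8%, was lower with SB204990 in both in 19.3% and higher in both in 14.96%. Across these intervals the log2 share ratios of set 1 and set 2 had a Pearson r of -0.36, a description over intervals that are not independent and that differ in depth between libraries. The ratios of set 1 had r of 0.40 and 0.42 with the pairs that received acetate, and those of set 2 had r of -0.16 and -0.20.

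As deposited, 30 of 63903 tested intervals (0.0469%) differed between the groups at an adjusted p under 0.05, 16 higher with SB204990 (0.025%) and 14 lower (0.0219%). The test was limma on log2(scaled value + 1), and fold changes of weak intervals are understated on that scale. At an unadjusted p under 0.05, 448 were higher (0.701%) and 8582 lower (13.4%). The 2 groups did not overlap in 457 intervals in the higher direction (0.715%) and in 20939 in the lower (32.8%). The counts rested on single libraries. Without the set 2 etomoxir + SB204990 library 0 were called higher and 16053 lower, without the set 1 library 1018 were called, of which 687 were higher, and without a set 1 or set 2 etomoxir library only 1 and 2, all higher. They also fell to 9 higher and 0 lower without either etomoxir + acetate library, and rose to 2678 or 2664 without an etomoxir + SB204990 + acetate library. All 6 groups share 1 estimate of the spread. With the set as a replicate block, 32 were called higher and 48 lower.

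The 16 intervals called higher lay mainly in repeated sequence. They included tandem satellite near *Gm10722* and *Gm10718* at the start of the assembled chromosome 9, zinc finger gene clusters on chromosome 4 (*Zfp988*, *Zfp981*, *Zfp982*), and an interval at *Gm42418* that overlaps a ribosomal RNA gene. Of the 15 with sequence on a placed chromosome, 12 had over 50% of their bases copied elsewhere at 90% identity or more over at least 100 bp, with a median of 100%. In the 14 intervals called lower the median was 3.21% and the highest value 16.9%. Reads from such copies cannot be assigned to one place with certainty.

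The *Gm10722* interval (chr9:3000090-3003474), which holds the satellite unit printed above, had scaled values of 136.6 and 134.6 with etomoxir and 141.8 and 598.0 with etomoxir + SB204990. As a share it stood at 17.0 and 17.1 ppm with etomoxir, 26.5 ppm in set 1 and 83.3 ppm in set 2 with SB204990. Both SB204990 libraries were higher on either scale, the set 2 library far more so. Its log2 fold change as deposited was 1.10 ± 0.22 (SE, limma adjusted p = 0.00354), and 0.06 (limma adjusted p = 0.805) without the set 2 library. With acetate the shares were 18.1 and 16.7 ppm before and 25.9 and 23.9 ppm after SB204990, so that the share was higher in all 4 pairs. The neighbouring *Gm10718* interval went from 33.1 and 31.6 ppm to 48.4 and 169 ppm, a share difference that did not pass (limma adjusted p = 0.999). As deposited it had 265.2 and 248.0 with etomoxir and 259.3 and 1215 with SB204990 (limma adjusted p = 1.16e-04). On that scale only the set 2 library was above both etomoxir libraries.

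The *Gm42418* interval (chr17:39843038-39847203) had the smallest p of the 30, with scaled values of 730.9 and 729.0 with etomoxir against 618.1 and 5093 with SB204990. Only the set 2 library was above the etomoxir libraries as deposited, and the log2 fold change was 1.28 ± 0.17 (SE, limma adjusted p = 1.15e-08). The intervals in *Zc3h7a* and *Filip1l* printed above had the same form. The *Zc3h7a* interval had scaled values of 37.7 and 39.5 with etomoxir, then 33.9 and 268 with SB204990 (limma adjusted p = 0.0176), and the *Filip1l* interval 34.3 and 34.9, then 32.3 and 278 (limma adjusted p = 0.00472). The set 1 library was below both etomoxir libraries at these 3 intervals, so the calls do not describe both sets. As deposited, 4 of the 16 moved the same way in both sets. After division by the column sum all 16 were higher in both sets, by 0.12 to 0.76 on the log2 scale in set 1 and by 2.20 to 3.17 in set 2, and 15 of 16 were higher in both acetate pairs too.

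The 14 intervals called lower were long, with a median of 21577.5 bp and 12 of them over 15 kb. Among them were intervals named for histone genes (*Hist1h2ab*, *Hist1h1d*), the genes of the transcription factors *Foxc1*, *Irx2*, *Nfia* and *Trps1*, and *Cdkn2c*, an inhibitor of cyclin-dependent kinases. The *Hist1h2ab* interval had scaled values of 2429 and 2529 with etomoxir and 1758 and 1110 with SB204990 (log2 fold change -0.83, limma adjusted p = 0.00878). As deposited all 14 were lower in both sets. As shares, 12 of the 14 were higher with SB204990 in set 1 and lower in set 2. The *Trps1* interval, for instance, held 758 and 938 ppm with etomoxir, 899 ppm in the set 1 library and 435 ppm in the set 2 library.

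The other 2 intervals called lower kept their direction as shares in both sets, and in both pairs with acetate. The first (chr7:88197651-88202239) is intergenic, and its nearest gene is *Ctsc*, which encodes the protease cathepsin C. It had scaled values of 148.0 and 140.3 with etomoxir and 70.1 and 64.0 with SB204990, with no overlap. The log2 fold change was -1.09 ± 0.24 (SE, limma adjusted p = 0.0176). Its shares were 18.5 and 17.9 ppm with etomoxir and 13.1 and 8.91 ppm with SB204990, a log2 difference of -0.74 that did not pass (limma adjusted p = 0.999).

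The second (chr13:73069645-73081178) is also intergenic, with the homeobox gene *Irx4* nearest. It had 245.2 and 211.9 with etomoxir and 96.0 and 142.0 with SB204990. The log2 fold change was -0.96 ± 0.21 (SE, limma adjusted p = 0.0207). The shares were 30.6 and 26.98 ppm with etomoxir and 17.9 and 19.8 ppm with SB204990, again without overlap (log2 difference -0.61, limma adjusted p = 0.999). Without the set 1 etomoxir + SB204990 library the *Irx4* interval no longer passed as deposited (log2 fold change -0.68, limma adjusted p = 0.107), and without either etomoxir library neither interval passed (limma adjusted p of 0.756 to 0.944).

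**Figure D3:**
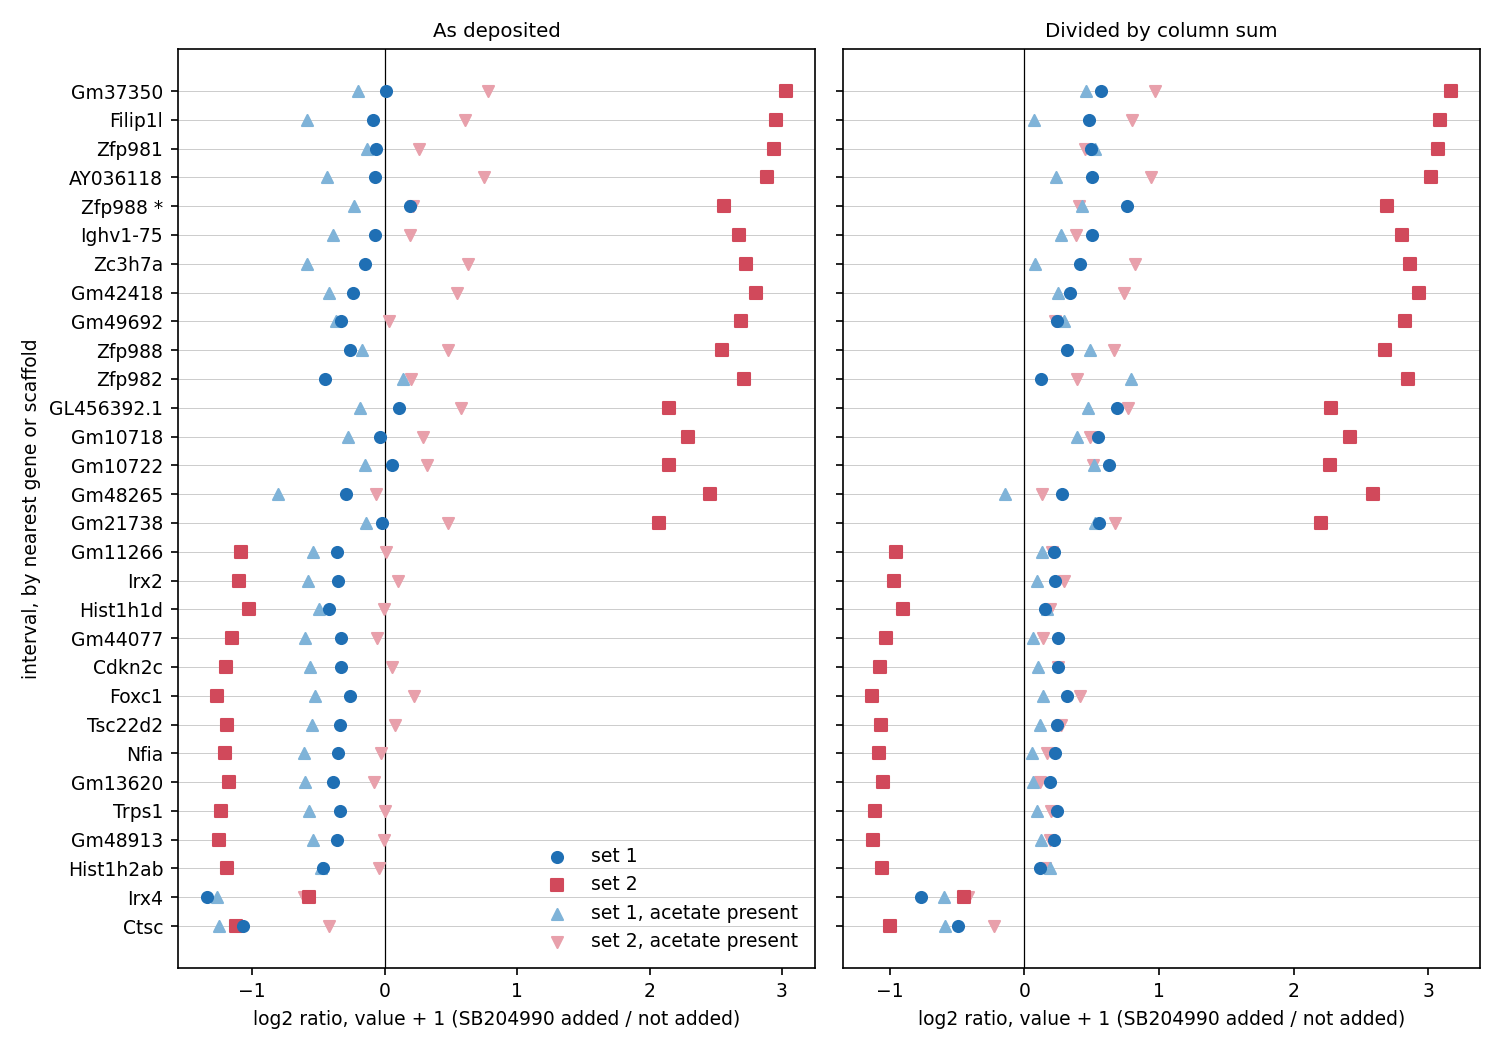
Log2 ratio of value + 1, etomoxir + SB204990 over etomoxir, as deposited (left) and divided by the column sum (right), of the 16 intervals called higher and the 14 called lower as deposited, with set 1 as circles, set 2 as squares and acetate pairs as triangles, and an asterisk on the longer of the intervals named for *Zfp988*. On the right the higher group lies at 2.20 to 3.17 in set 2 and at 0.12 to 0.76 in set 1, and of the lower group *Ctsc* and *Irx4* are the ones below 0 in all 4 pairs.

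After division by the column sum, limma called 0 of the 63903 intervals (0.0%). At an unadjusted p under 0.05, 1526 were higher (2.39%) and 703 lower (1.1%). The groups did not overlap in 8620 intervals in the higher direction (13.5%) and 6079 in the lower (9.51%). On the recovered reads edgeR with TMM factors called 0 and DESeq2 called 2, both higher. Without the set 1 etomoxir + SB204990 library, 1252 were called higher and 1311 lower.

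Among the intervals lower in both sets, the one with the smallest unadjusted p as a share spans *Mmp9*, a secreted gelatinase that degrades basement membrane collagen. It runs over 40104 bp (chr2:164921821-164961924) and takes in the starts of *Mmp9* and of its neighbour *Slc12a5*. It held 140 and 135 ppm with etomoxir and 106 and 110 ppm with etomoxir + SB204990, with no overlap. With acetate present it held 143 and 141 ppm, and 116 and 119 ppm with SB204990. The log2 share difference was -0.35 (limma unadjusted p = 0.000447, adjusted p = 0.999), and as deposited -0.70 ± 0.18 (SE, limma adjusted p = 0.0796). It passed as a share only when the set 1 etomoxir + SB204990 library was left out (log2 difference -0.32, limma adjusted p = 0.0232). The next was an interval at *Camk2b*, a calcium/calmodulin-dependent kinase. The authors class it as promoter although its given distance to the gene start is -16364 bp. It held 34.1 and 35.7 ppm against 26.3 and 26.6 ppm (limma adjusted p = 0.999 as shares and 0.134 as deposited). It was followed by the *Irx4* interval described above.

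Signal was then summed over the intervals of each gene. Of 19438 genes tested, limma called 0 as deposited (0.0%), with 332 higher (1.71%) and 3748 lower (19.3%) before adjustment at the same threshold. edgeR on the recovered reads also called 0. With the set as a replicate block limma called 238 as deposited, 188 higher and 50 lower. The groups did not overlap in 109 genes in the higher direction (0.561%) and 9158 in the lower (47.1%). As shares limma called 0 (0.0%), with 791 higher (4.07%) and 209 lower (1.08%) before adjustment, edgeR with TMM factors called 0 and DESeq2 called 9, all higher. Without the set 2 etomoxir + SB204990 library 12403 genes were called as deposited and 1 of these was higher, and without the set 1 library 1185, of which 962 were higher. The named genes below did not pass in either scaling, so their values are a description. Where both SB204990 libraries lay above or below both etomoxir libraries, the text says that they lay higher or lower without overlap, which is no test. Their limma adjusted p lay between 0.234 and 1.00 as deposited and between 0.938 and 0.984 as shares. The median log2 fold change over all tested genes was -0.33 as deposited and 0.02 as shares, and each list's share median is set beside it. As deposited, the medians of the 12 lists ran from -0.38 to -0.24. No list had a member that lay higher without overlap as deposited, and 38.9 to 81.0% of the members lay lower without overlap.

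The target and the enzymes around acetyl-CoA came first. *Acly* itself held 63.7 and 66.9 ppm with etomoxir and 67.3 and 77.3 ppm with SB204990. *Acss2*, which makes acetyl-CoA from acetate, held 5.85 and 5.54 ppm, then 5.65 and 9.05 ppm. *Cs*, the citrate synthase that makes the substrate of ATP citrate lyase, held 88.4 and 88.6 ppm, then 81.6 and 76.9 ppm. *Acly* lay higher and *Cs* lower without overlap, and *Acss2* overlapped. Of the 18 tested genes of the acetyl-CoA supply list, 0 passed. The groups did not overlap in the higher direction in 5 (27.8%) and in the lower in 3, beside 14.2% and 9.87% of all genes. The list's median share difference was 0.07, with 0.01 in set 1 and 0.14 in set 2.

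Genes of the pathways that use cytosolic acetyl-CoA had mostly small differences. *Fdps*, which makes farnesyl diphosphate, held 29.1 and 32.5 ppm with etomoxir and 37.9 and 40.8 ppm with SB204990 (log2 share difference 0.35, limma unadjusted p = 0.0219). *Sqle*, the squalene epoxidase, held 55.2 and 62.6 ppm, then 65.7 and 68.3 ppm. In both genes both SB204990 libraries lay above both etomoxir libraries. Over the 23 tested genes of cholesterol synthesis and uptake, 0 passed, 6 did not overlap in the higher direction (26.1%, all genes 14.2%) and 3 in the lower (13.0%, all genes 9.87%), and the median share difference was 0.09. As deposited the list had a median of -0.26, with 12 of 23 lower (52.2%, all genes 47.1%) and 0 higher without overlap. Its medians were 0.06 in set 1, 0.05 in set 2, and 0.04 and 0.06 with acetate. With acetate present *Sqle* held 56.5 and 57.8 ppm, then 56.3 and 59.8 ppm, with overlap. The difference between these effects was not called by the interaction test below.

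Fatty acid synthesis and desaturation gave *Fads2*, a desaturase, at 98.0 and 97.7 ppm against 109 and 116 ppm, and *Elovl6*, an elongase, at 5.99 and 5.10 ppm against 7.07 and 8.36 ppm. The 20 tested members had a median share difference of 0.01, with -0.05 in set 1 and 0.16 in set 2, and 0 passed. As shares 5 did not overlap in the higher direction (25%, all genes 14.2%) and 3 in the lower (15%, all genes 9.87%).

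Fatty acid oxidation is the pathway that etomoxir blocks, and many of its genes are PPAR targets. *Cpt1a*, the target of etomoxir, held 208 and 210 ppm with etomoxir and 232 and 229 ppm with SB204990. *Acot1*, a cytosolic acyl-CoA thioesterase, held 7.84 and 6.64 ppm, then 11.01 and 12.1 ppm (log2 share difference 0.67, limma unadjusted p = 0.0170). Both lay higher without overlap. So did its mitochondrial relative *Acot2*, at 45.2 and 44.4 ppm against 57.0 and 47.6 ppm, and *Pdk4*, a kinase that holds pyruvate dehydrogenase inactive, at 275 and 293 ppm against 308 and 305 ppm. Of the 32 tested members 0 passed, 10 did not overlap in the higher direction (31.2%) and 3 in the lower, beside 14.2% and 9.87% of all genes. The median share difference was 0.12. By set, the list's median was 0.03 in set 1 and 0.18 in set 2, and with acetate it was -0.04 in each pair, beside medians over all genes of -0.04 in set 1, 0.12 in set 2 and -0.03 and -0.04 with acetate. Whether the list differs from all genes was not tested. As deposited its median was -0.24, with 13 of 32 members lower (40.6%, all genes 47.1%) and 0 higher without overlap.

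Writers, erasers and readers of histone acetylation lay lower as deposited in 17 of 25 genes without overlap (68%, all genes 47.1%) and higher in 0. Their median was -0.36. The epithelial, NRF2, integrated stress response and AP-1 lists had larger percentages lower, from 69.2 to 81.0%. As shares the list had no common direction, with 1 higher (4%, all genes 14.2%) and 3 lower (12%, all genes 9.87%) without overlap. The acetyltransferase gene *Ep300* held 86.1 and 92.0 ppm with etomoxir and 100 and 60.3 ppm with SB204990, the 2 SB204990 libraries lying on either side. *Kat6b*, another acetyltransferase, held 86.3 and 86.1 ppm, then 79.97 and 68.5 ppm. *Hdac2*, a deacetylase, held 44.9 and 45.4 ppm, then 43.6 and 34.1 ppm. The 25 tested genes had a median share difference of -0.01, with -0.03 in set 1 and -0.01 in set 2, and 0 passed.

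**Figure D4:**
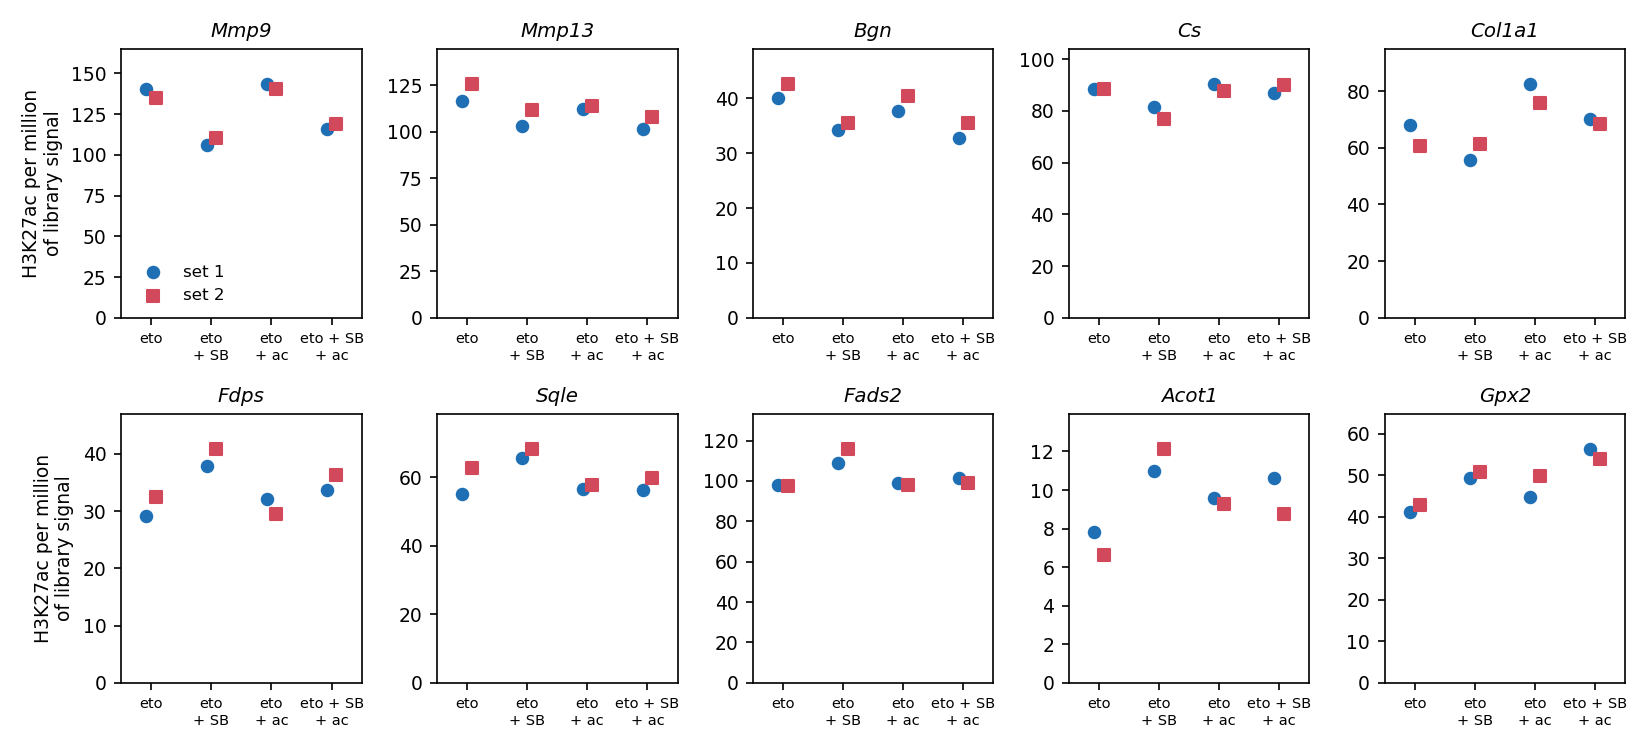
Share of H3K27ac signal in ppm for 10 named genes in the etomoxir and etomoxir + SB204990 groups without and with acetate, set 1 as circles and set 2 as squares. *Mmp9* and *Bgn* lie lower and *Gpx2* higher with SB204990 with and without acetate, while *Acot1* overlaps with acetate.

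Matrix genes were read next, since they include proteins that tumour cells remodel when they invade. *Bgn*, the proteoglycan biglycan, held 40.001 and 42.5 ppm with etomoxir and 34.1 and 35.4 ppm with SB204990 (log2 share difference -0.25, limma unadjusted p = 0.0299). *Col8a1*, a short-chain collagen, held 446 and 450 ppm, then 416 and 355 ppm. *Postn*, the matrix protein periostin, held 149 and 142 ppm, then 127 and 139 ppm. These 3 lay lower without overlap, and *Col1a1*, a chain of type I collagen, overlapped at 68.1 and 60.7 ppm against 55.9 and 61.4 ppm. *Sparc*, a collagen-binding matrix protein, also overlapped, at 129 and 132 ppm against 119 and 140 ppm. Over the 35 tested matrix genes 0 passed, 6 did not overlap in the lower direction (17.1%, all genes 9.87%) and 4 in the higher (11.4%, all genes 14.2%). The median share difference was -0.01, with -0.09 in set 1 and 0.06 in set 2.

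Genes of the epithelial-mesenchymal transition held the gene with the smallest p of all those named. Summed over its interval, *Mmp9* had a share difference of -0.35 ± 0.06 (SE, limma unadjusted p = 0.00015, adjusted p = 0.938). *Mmp13*, the collagenase whose promoter is printed above, held 117 and 126 ppm with etomoxir and 103 and 112 ppm with SB204990. With acetate it held 112 and 114 ppm, then 102 and 108 ppm, lower without overlap with and without acetate. *Itga5*, an integrin subunit that binds fibronectin, lay higher at 70.6 and 73.8 ppm against 74.3 and 78.6 ppm. Of the 38 tested genes 0 passed, and the median share difference was -0.03, with 0.01 in set 1 and -0.01 in set 2. As shares 7 lay lower without overlap (18.4%, all genes 9.87%) and 6 higher (15.8%, all genes 14.2%). In the epithelial list *Krt19*, a simple epithelial keratin, held 82.8 and 72.4 ppm, then 84.6 and 86.6 ppm, and *Ovol2*, a repressor of mesenchymal genes, 7.77 and 7.51 ppm, then 9.002 and 9.05 ppm. The 26 tested epithelial genes had a median of 0.02, the same as all genes, and 0 passed. As shares 4 of them lay higher without overlap (15.4%, all genes 14.2%) and 3 lower (11.5%, all genes 9.87%). As deposited 18 lay lower without overlap (69.2%, all genes 47.1%) and 0 higher.

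The list medians of stress and growth programmes had opposite signs in the 2 sets, a difference that was not tested. The 21 tested AP-1 and immediate early genes had a median share difference of 0.12 in set 1 and -0.16 in set 2, and 0.11 and 0.13 in the pairs with acetate, where all genes had -0.04, 0.12, -0.03 and -0.04. Their fitted median was -0.02 and 0 passed. *Egr1*, an immediate early transcription factor, held 22.0 and 21.7 ppm with etomoxir, then 28.1 and 22.8 ppm. *Atf2*, a partner of Jun, held 57.8 and 63.2 ppm, then 55.9 and 51.1 ppm. The 28 tested integrated stress response genes had medians of 0.09 in set 1 and -0.05 in set 2, with *Atf3*, a stress-induced factor, at 17.0 and 17.6 ppm against 17.6 and 24.2 ppm, and *Psph*, the last enzyme of serine synthesis, at 11.98 and 13.1 ppm against 13.3 and 18.0 ppm. None of the 28 passed.

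Glycolysis and the NRF2 antioxidant response completed the lists. *Eno2*, an enolase, held 5.42 and 5.62 ppm with etomoxir and 6.84 and 8.36 ppm with SB204990, and *Pfkm*, a phosphofructokinase subunit, 53.7 and 52.5 ppm, then 52.7 and 41.0 ppm. The 25 tested glycolysis genes had a fitted median share difference of 0.04, and medians of 0.09 and 0.08 in sets 1 and 2 and of 0.08 in each pair with acetate. *Gpx2*, a glutathione peroxidase, held 41.2 and 42.7 ppm, then 49.2 and 50.8 ppm (log2 share difference 0.25, limma unadjusted p = 0.0137). *Gsr*, the glutathione reductase, lay on the other side at 177 and 171 ppm against 163 and 145 ppm. The 23 tested NRF2 genes had a median of 0.01, with 0.06 in set 1 and -0.11 in set 2, and in both lists 0 passed.

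**Figure D5:**
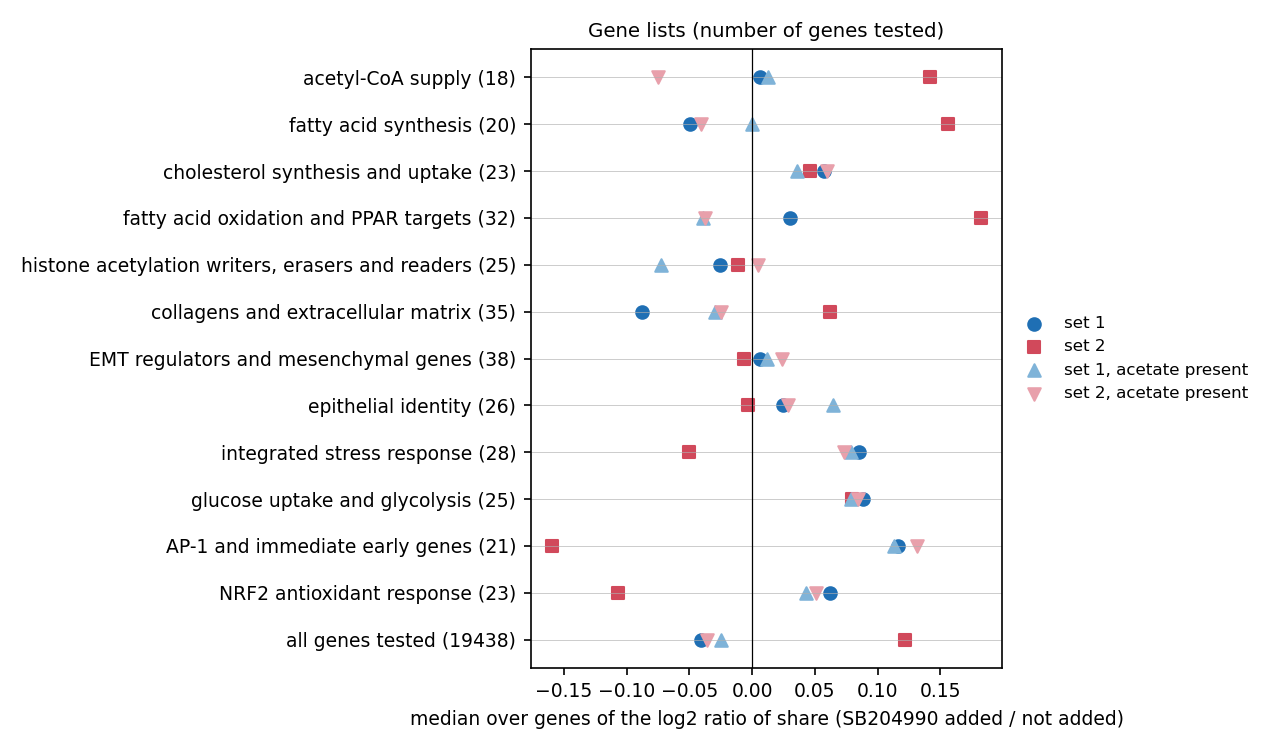
Median log2 share ratio, etomoxir + SB204990 over etomoxir, of each gene list in each pair of libraries, set 1 as circles, set 2 as squares and the pairs with acetate as triangles. The AP-1 list lies at 0.12 in set 1 and -0.16 in set 2, and the fatty acid oxidation list at 0.03 and 0.18, beside -0.04 and 0.12 for all genes tested.

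The last comparison asked whether the SB204990 effect differed when acetate was present. The pairs with and without acetate share no library. With acetate the summed signal had ratios of 0.629 in set 1 and 0.872 in set 2, beside the 0.668 and 0.914 without it, and the mean log2 ratio was -0.43 ± 0.33 (SD over the 2 sets, exact permutation p of 0.333). The factors alone had ratios of 0.647 and 0.903 with acetate, and 0.697 and 1.75 without it. The median interval had log2 ratios of -0.74 and -0.29 with acetate, where without it set 2 was at 0.34. In that contrast limma called 1 interval lower (0.00156%) and 0 higher on either scale, the interval on chromosome Y described last. With the set as a replicate block 22 were called lower as deposited, and leaving out some single libraries raised the count far more. Before adjustment the main fit had 17467 lower as deposited (27.3%) and 3 higher (0.00469%), and 48776 lay lower without overlap (76.3%). As shares 2.61% were lower and 0.573% higher before adjustment, and 29.7% lay lower and 13.1% higher without overlap. For genes as deposited limma called 1 lower (0.00514%), or 2 with the set as a replicate block. In the main fit 38.7% were lower before adjustment, and 85.6% lay lower and 0.37% higher without overlap. In the interaction test limma called 2 of 63903 intervals as deposited (0.00313%) and 0 as shares (0.0%). Of 19438 genes it called 0 on either scale (0.0%), or 27 as deposited with the set as a replicate block. At an unadjusted p under 0.05, 973 intervals as deposited and 1677 as shares differed, as did 68 and 241 genes. The 2 called intervals were *Gm42418*, where the set 2 etomoxir + SB204990 library held 709 ppm and the other 7 libraries of the 4 groups 91.2 to 202 ppm, and an interval of 260 bp on chromosome Y, wholly repeat-masked, which had no reads in either etomoxir + SB204990 + acetate library.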

How the data were processed

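H3K27ac ChIP-seq was measured in 4T1 cells. Per the methods, chromatin was cut with micrococcal nuclease, nuclei were lysed by sonication, and the chromatin was mixed with human chromatin. Reads were aligned with nf-core/chipseq to merged GRCh38 and mm10, and deepTools was used. The submitters' processing notes name GRCm38, mm10 and GRCh38. The peak caller and its settings are not given in the sources used here. The deposited table gave spike-in scaled signal per interval for 12 libraries with the authors' annotation. Each signal value was a whole multiple of the library's smallest step within 0.001 in 100% of values, so the authors' read counts were recovered by division, and the step was taken as the factor. No value column was left unused. Depth in intervals was 7179165 to 16676442 reads a library, and a count of 0 allows up to 3 reads. These cover counting error only.

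Groups came from the treatment labels. The main test was limma 3.58.1 in R 4.3.3 with an intensity trend on log2(signal + 1), over 6 group means of all 12 libraries, with Benjamini-Hochberg adjustment and a call at an adjusted p under 0.05. Intervals (63903 of 126464) and genes (19438 of 22243 symbols) with a mean of at least 10 were tested. The same fit was run after dividing each column by its sum. Library totals were compared with an exact two-sided permutation test. Alternatives were pseudocounts of 0.5 and 5, other filters, fewer libraries, no trend, a replicate block, other scalings, edgeR 4.0.16 and DESeq2 1.42.0 on recovered counts (an adjusted p of NA was kept NA), and leaving out each library. Crossed pairing, quantile normalization and leaving out libraries with acetate were added after seeing the data. The fits were tested on simulated data. All intervals lay within the RefSeq GRCm38.p6 chromosome lengths.

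Named intervals had a mean of at least 50, passed the test and moved the same way in both sets, up to 6 a direction, or else were the 3 with the lowest p. Other called intervals were chosen after their values were seen. In each gene list the 2 members with the lowest p as shares and a gene sum of at least 50 were named, plus 12 genes of the pathways; some genes that the rule names are not reported here. The *Mmp13* promoter and the copied sequences were chosen for printing after seeing the data. Members and lists were chosen with earlier results of these data known.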

Additional observations from a re-analysis of the deposited data

Results flagged for a closer look

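The SB204990 effect differed between the pairs without and with acetate at 2 intervals as deposited, by the limma interaction test (effect with acetate minus effect without). At *Gm42418* the difference was -1.22 ± 0.25 on the log2 scale (SE, limma adjusted p = 0.0234). The scaled values were 730.9 and 729.0 with etomoxir, 618.1 and 5093 with etomoxir + SB204990, 2324 and 1475 with etomoxir + acetate, and 1738 and 2150 with etomoxir + SB204990 + acetate. As shares the difference was -1.14 (limma adjusted p = 0.995). The set 2 etomoxir + SB204990 library alone was high, and without it the interaction test called 1 interval in all.

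At the interval near *Gm28986* (chrY:29071024-29071283) the difference was -5.16 ± 0.80 (SE, limma adjusted p = 8.75e-06). The scaled values were 11.4 and 10.3 with etomoxir, 5.97 and 31.0 with etomoxir + SB204990, 31.0 and 24 with etomoxir + acetate, and 0 in both etomoxir + SB204990 + acetate libraries. The fitted size depends on the pseudocount, since both of the last libraries had no reads. The interval was 100% repeat-masked, and as a share the difference did not pass (-4.96, limma adjusted p = 0.101). The interaction test on shares called 0 intervals, and 1 with a pseudocount of 0.5, with median-of-ratios scaling or with the crossed replicate block.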

How the results depend on the processing

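The count of intervals called as deposited (30) was the result that depended most on the processing. It was 72 with a mean of at least 50, 0 with no filter, 563 with only the 4 libraries of the comparison, 0 without the intensity trend, 156 with edgeR on recovered reads with the factors as offsets, and 0 when the share of reads was multiplied by the factor. It ran from 1 to 16053 when 1 library was left out. As shares the count of intervals (0) was 2 with DESeq2 and ran from 0 to 2563, and the count of genes (0) was 9 with DESeq2 and ran from 0 to 2265, the highest being without the set 1 etomoxir + SB204990 library. Genes as deposited (0) ran from 0 to 12403. The interaction count as deposited (2) was 1 with a mean of at least 50, 0 without the trend and ran from 0 to 1937, or from 0 to 2293 for genes. As shares it ran from 0 to 1596, and from 0 to 1557 for genes. The mean log2 ratio of the totals (-0.36) was 0.14 with the share multiplied by the factor and ran from -0.57 to -0.14. The median interval, by group means on the log2 scale (-0.17), was -0.26 as the mean of the log2 ratios within each set, -0.26 over intervals with a mean of at least 10 and 0.53 with the share multiplied by the factor, and it ran from -0.70 to 0.22, the last without the set 1 etomoxir + SB204990 library. The causes were not tested. Where a group was left with 1 library, that library was assumed to vary like the other groups.

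The ratios given for each set pair the libraries by suffix, but the main fits and the permutation test did not. Deviations of same-numbered etomoxir and etomoxir + SB204990 libraries from their group means had an r of -0.15, and the range over pairs of groups was -0.15 to 0.35. With the suffix as a replicate block, 80 intervals (32 higher, 48 lower) and 238 genes (188 higher, 50 lower, in place of 0) were called as deposited, and 27 genes in the interaction. With a crossed replicate block, chosen after seeing the data, 113 intervals and 322 genes were called. In the pairs with acetate, the replicate block called 22 intervals and 2 genes as deposited. The crossed block called 460 and 4716 there, and all of these were lower. Among single intervals and genes, 1224 of the planned values kept their direction and side of the threshold, 65 lost and 64 gained a call. Another 51 changed direction, all of them values not called in the main fit. Of those added after seeing the data the numbers were 539, 20, 12 and 1. The *Mmp9* interval as deposited passed with a mean of at least 50 (limma adjusted p = 0.0409), with only the 4 libraries (0.00176) and with the replicate block (0.0393).

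Depth limits weak intervals, but the share of empty intervals did not follow it. In each of the 4 libraries 0.409 to 1.06% of intervals had no reads. The lowest value was in the set 2 etomoxir + SB204990 library, which had the fewest reads.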
